A study of Mus musculus with 16 samples.

Results

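Neurons of the prelimbic cortex that send axons to the nucleus accumbens (PL-NAc) were compared, gene by gene, with those that send axons to the basolateral amygdala (PL-BLA), by the enrichment of each mRNA on tagged polysomes. The comparison covered 11996 genes, taken from 39017 gene rows by a mean normalized count of at least 50 in the deposited comparison tables of both projections. All mice were C57BL/6J, an inbred strain. A virus whose GFP-tagged ribosomal protein is made only where Cre is present (AAV-IV-GFPL10) was placed in the prelimbic cortex, and a canine adenovirus carrying Cre (CAV-Cre), which is taken up by axon endings, was placed in the nucleus accumbens or the basolateral amygdala. Tagged polysomes pulled down on anti-GFP beads gave the IP libraries, and RNA of the whole dissected tissue gave the Input libraries. There were 3 IP and 3 Input libraries for PL-NAc and 3 and 3 for PL-BLA. A PL-VTA set, with CAV-Cre in the ventral tegmental area, had 2 and 2 and is used here only for reference. The labels give neither sex nor age and do not say whether replicates were separate animals or pools, so the p-values measure only the spread between these libraries, which may be technical. Viral Cre marks whichever cells take up the virus at the target, and a neuron with branches to both targets could be marked in either set.

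Projection neurons of the deep cortical layers fall into broad classes with known marker genes. Intratelencephalic neurons project to the striatum, amygdala and other cortex, extratelencephalic neurons of layer 5 project out of the forebrain with side branches to the striatum, and layer 6 and 6b neurons project largely to the thalamus or stay within the cortex. The nucleus accumbens receives cortical drive tied to motivated action, and the basolateral amygdala cortical drive tied to learning about threat and reward.

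Enrichment here is the log2 ratio of IP to Input from the authors' deposited tables, and the enrichment difference is PL-NAc minus PL-BLA, so that a positive value means higher enrichment in PL-NAc. Values after ± are standard errors, and that of a difference combines the errors of both tables. A gene is called when the two-sided Wald z test of its difference had a Benjamini-Hochberg adjusted p under 0.05 over the 21981 genes with a fold change in both tables. The files used here give 1 summary per gene and projection, so values of single libraries cannot be shown. An IP and an Input level can be worked out from the mean count and the fold change of a gene, as normalized counts in 1000000 of the table's total (CPM). These implied levels carry no error of their own, and the 2 tables were normalized separately. Beside a named gene it is said where its call ended under another way of testing, other than the null of 0.5 given below. These ways include multiplying the PL-BLA fold changes by their slope across genes, comparing the Wald statistics of the tables in place of the fold changes, dividing z by its robust spread across genes, subtracting the trend of the difference on transcript length and GC content, and undoing the shrinkage of fold changes toward 0 that the deposited errors point to. In tissue RNA, fewer cells of a type and less RNA per cell cannot be told apart.

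Most genes were enriched to a like degree in both projections. The median absolute difference was 0.14 on the log2 scale, below the median standard error of 0.18, and Pearson's r of the enrichments across the 11996 genes was 0.93, as a description over genes that share the same libraries. Of these genes, 242 were called (2.02%), and over all 21981 genes tested 251 were (1.14%). Higher enrichment in PL-NAc was called for 83 (0.692%) and higher enrichment in PL-BLA for 159 (1.33%), against 86 (0.391%) and 165 (0.751%) of all genes tested. A difference of at least 2-fold was seen in 22 of the 83 and 38 of the 159. The differences lay mostly on the IP side: the implied IP levels of the projections were further apart than the implied Input levels for 65 of the 83 (78.3%) and 148 of the 159 (93.1%), against 64.7% of all members. The implied Input levels differed by 2-fold or more for 1 of the 83, 3 of the 159 and 21 of all 11996 members. Inputs of called genes were also further apart than those of all members. The median absolute log2 Input difference was 0.19 in the 83, 0.13 in the 159 and 0.095 over all members. For the IP levels it was 0.56, 0.71 and 0.15. Across genes the PL-NAc enrichments were spread more widely, with a slope of 1.13 on those of PL-BLA. Tested against an absolute difference of 0.5 instead of 0, 3 genes remained called toward PL-NAc and 6 toward PL-BLA, so most calls below show a difference but not that it exceeds 0.5.

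**Figure D1:**
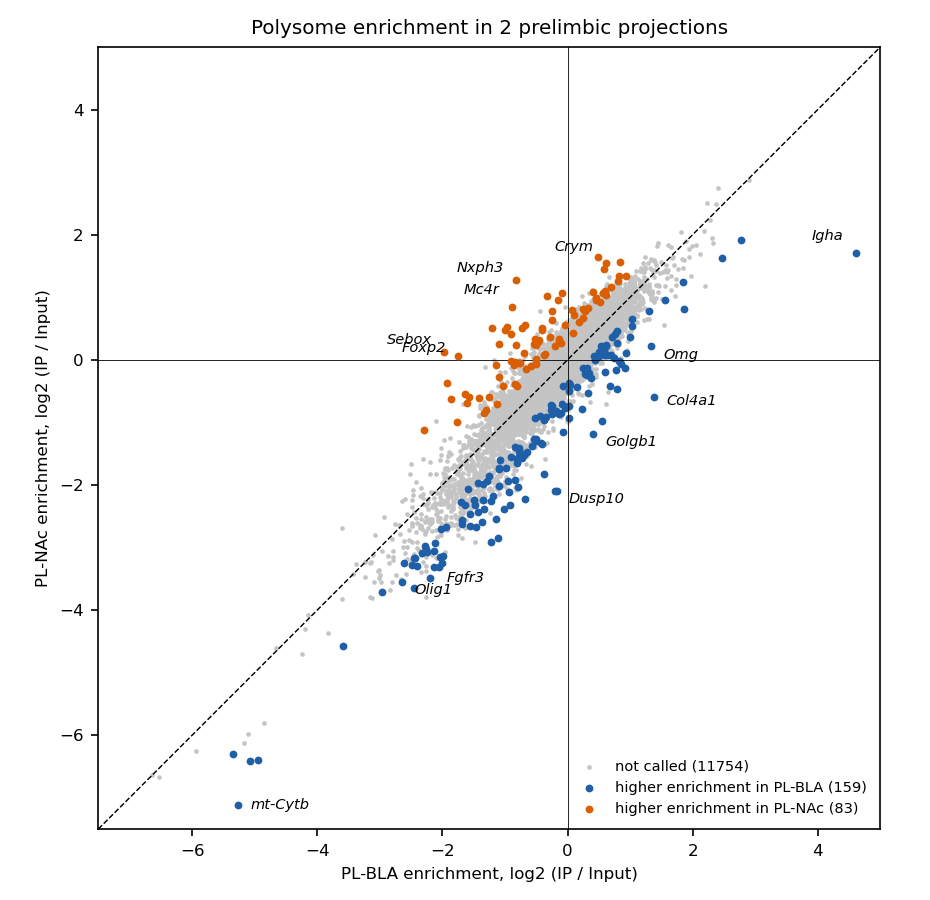
Each point is 1 of the 11996 genes, with its log2 enrichment (IP over Input) in PL-BLA on the horizontal axis and in PL-NAc on the vertical axis. The dashed line marks equal enrichment, the 83 genes called higher in PL-NAc lie above it and the 159 called higher in PL-BLA lie below it, and most points follow the line.

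Markers of layer 6 were among the genes with the largest differences toward PL-NAc. Of 14 measured layer 6 and 6b genes, 8 were called higher in PL-NAc and none in PL-BLA, with a median difference of 0.86 against -0.01 over all members. Their implied levels summed to 434 CPM in the PL-NAc Input and 472 in the PL-BLA Input, so the summed Inputs were close. The summed IP level was 170% of Input in PL-NAc and 88.4% in PL-BLA.

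Nxph3 (chr11:95509845-95514570), which encodes a secreted ligand of alpha-neurexins, had the largest difference of the list. Its implied level went from 12.7 CPM in Input to 30.9 in IP in PL-NAc, and from 14.3 to 8.11 in PL-BLA. The difference was 2.09 ± 0.26, a 4.27-fold gap in enrichment (adjusted p = 7.41e-12). Foxp2 (chr6:14901349-15441977), a forkhead transcription factor of corticothalamic neurons, stood at 19.2 and 19.99 CPM in the PL-NAc Input and IP. In PL-BLA it stood at 31.6 and 9.39. The difference was 1.80 ± 0.23 (adjusted p = 2.88e-11). In the authors' deposited tables Foxp2 was at -1.75 ± 0.17 in PL-BLA, beside 0.06 ± 0.16 in PL-NAc. Its implied Inputs were unequal, higher in PL-BLA, and their part in the difference was not tested.

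The other called layer 6 genes differed in where they stood against Input. Sla, an adaptor of receptor signalling, differed by 1.71 ± 0.33 and Rprm, a cell cycle arrest factor, by 1.475 ± 0.303. Both had implied IP levels above Input in PL-NAc and below it in PL-BLA. Only the PL-BLA side passed the deposited adjusted p, which in PL-NAc was 0.138 for Sla and 0.16 for Rprm. Syt6, a synaptotagmin, was below Input in both projections, at 30.7 against 47.2 CPM in PL-NAc and 13.5 against 49.4 in PL-BLA, with a difference of 1.25 ± 0.20. Crym (chr7:120186380-120202111), a thyroid hormone binding protein, was above Input in both, at 350 against 120 CPM in PL-NAc and 203 against 133 in PL-BLA, with a difference of 0.93 ± 0.12 (adjusted p = 6.11e-11). Ctgf, a matricellular protein typical of layer 6b, and Tle4, a corepressor of corticothalamic neurons, completed the 8. They fell outside the naming rule and were picked after their values were seen, with differences of 1.10 ± 0.20 and 0.79 ± 0.15.

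Not every gene of the list took part. Ntsr1, a neurotensin receptor that marks corticothalamic neurons, had a difference of 0.21 ± 0.39 and was above Input in both projections, at 1.59 and 1.38 on the log2 scale in the authors' deposited tables. Trh, a releasing hormone, differed by -0.05 ± 0.37, and Tmem40 by -0.45 ± 0.33. None of these 3 was called, and they too were chosen after their values were seen. The wide errors of Ntsr1 and Trh leave differences of the size seen for Crym undetectable.

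**Figure D2:**
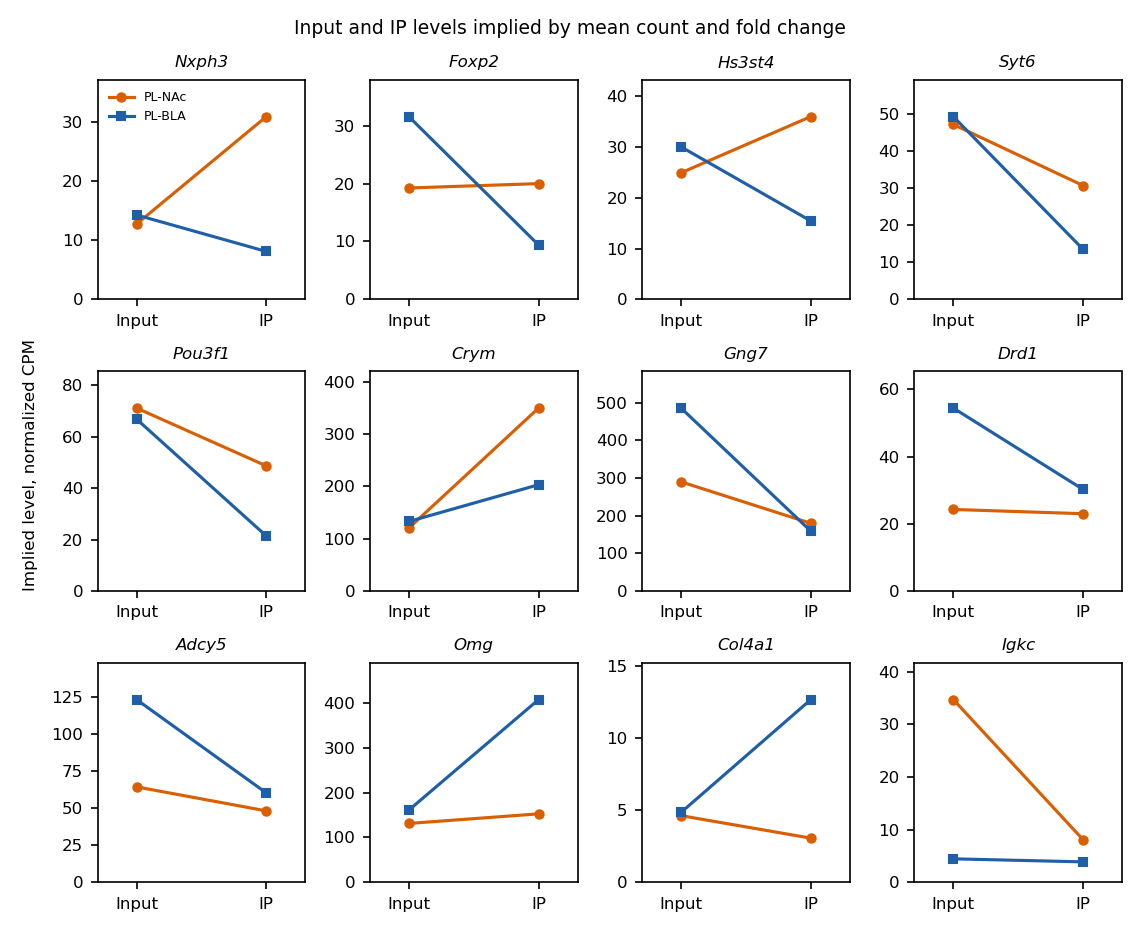
Each panel gives 1 gene, with the implied Input and IP level in CPM for PL-NAc (circles) and PL-BLA (squares), from 1 mean per group and with no error bar. Nxph3 starts from a like Input in both projections and parts in the IP (30.9 against 8.11), Drd1 and Adcy5 start from a higher Input in PL-BLA, and Igkc from a higher Input in PL-NAc.

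Markers of layer 5 extratelencephalic neurons leaned the same way. Of 17 measured, 5 were called higher in PL-NAc and 2 in PL-BLA, and the median difference was 0.47. Pou3f1, a POU transcription factor, had implied levels of 71.2 CPM in Input and 48.7 in IP in PL-NAc and 66.9 and 21.4 in PL-BLA, a difference of 1.10 ± 0.17 (adjusted p = 1.49e-07). Bcl11b, the zinc finger factor also called Ctip2, which the striatal list below holds too, went from 108 to 88.8 CPM in PL-NAc and from 142 to 66.5 in PL-BLA, a difference of 0.81 ± 0.13. Fezf2, which specifies this class in development, differed by 0.73 ± 0.13, and Parm1 by 0.72 ± 0.16. These 2 were chosen after their values were seen, and the fifth was Crym, which the layer 6 list also holds.

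Both list members called toward PL-BLA were below Input in both projections. Log2 enrichments in PL-NAc and PL-BLA were -2.66 and -1.47 for Spp1 and -0.87 and -0.25 for S100b. Spp1, a secreted glycoprotein, differed by -1.20 ± 0.31, and S100b, a calcium-binding protein abundant in astrocytes, by -0.63 ± 0.15. Spp1 lost its call with the PL-BLA values rescaled by the across-gene slope (adjusted p = 0.15), with the difference of Wald statistics (0.073) and with z divided by its robust spread (0.12). In PL-VTA the median enrichment of the same 17 genes was 1.31 on the log2 scale, against -0.06 in PL-NAc and -0.46 in PL-BLA. These are medians over tables that were normalized separately, and the PL-VTA values are given for reference without a test.

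Among 51 transcription factors of projection neurons, 7 were called higher in PL-NAc and none in PL-BLA, with a median difference of 0.06. Beside Foxp2, Pou3f1, Bcl11b and Fezf2 these were Zfpm2, Lmo3 and Nfib. Zfpm2, a cofactor of GATA factors, differed by 1.36 ± 0.27. Lmo3, a LIM-only cofactor, differed by 0.71 ± 0.12 and Nfib, a nuclear factor I protein, by 0.44 ± 0.13 (adjusted p = 0.044), both chosen after their values were seen. The call of Nfib ended with z divided by its robust spread (adjusted p = 0.19). Layer 5 intratelencephalic markers showed 1 call in each direction among 11. Vat1l was higher in PL-NAc by 0.61 ± 0.15, and Slc30a3, the zinc transporter of synaptic vesicles, was higher in PL-BLA (-0.38 ± 0.11). Of 16 upper-layer markers, 2 were called, both higher in PL-BLA: Calb1, which encodes calbindin, at -0.49 ± 0.11 and Nectin3, an adhesion protein, at -0.72 ± 0.19. Neither was above Input: log2 enrichments in PL-NAc and PL-BLA were -0.74 and -0.25 for Calb1 and -0.86 and -0.14 for Nectin3. With z divided by its robust spread the calls of Vat1l (adjusted p = 0.054), Slc30a3 (0.20) and Nectin3 (0.15) ended, as did that of Slc30a3 with the length and GC trend subtracted (0.055) and that of Nectin3 with the slope (0.067). General markers of excitatory neurons were balanced, with 1 of 17 called in each direction, a median difference of -0.01 and a summed IP level of 135% of Input in both projections. In each projection 11 of the 17 were above Input and 3 below it by the deposited adjusted p. This is the check of the labelled cell class that the files allow.

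Genes of striatal medium spiny neurons, included as markers of neighbouring tissue, were also called mostly toward PL-NAc, in 5 of 16 against 1, with Bcl11b among the 5. The Inputs of this list differed between the projections. Its summed implied level was 1477 CPM in the PL-NAc Input and 2693 in the PL-BLA Input, while the IP sums were 907 and 1215. Gng7, a G protein gamma subunit, had the smallest p of the PL-NAc direction: it went from 290 to 179 CPM in PL-NAc and from 485 to 159 in PL-BLA (difference 0.92 ± 0.11, adjusted p = 1.10e-13). Drd1, the dopamine D1 receptor, had 24.3 CPM in Input and 23.0 in IP in PL-NAc, and 54.4 and 30.2 in PL-BLA, a difference of 0.77 ± 0.19. Adcy5, the striatal adenylyl cyclase, had 64.3 and 48.1 in PL-NAc and 123 and 60.2 in PL-BLA, a difference of 0.61 ± 0.14. For Drd1 and Adcy5 both the implied IP level and the implied Input level were lower in PL-NAc than in PL-BLA. Penk, the enkephalin precursor, was called toward PL-BLA (-0.42 ± 0.11), with implied Inputs of 167 and 378 CPM. That call ended with the slope (adjusted p = 0.15), the difference of Wald statistics (0.12) and the robust spread (0.12). The part of the unequal Inputs in these differences was not tested.

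Only 17 genes had a deposited adjusted p under 0.05 in both tables with opposite signs (0.142%), and the difference was called for 16 of them (0.133%). In 11 of the 16, IP exceeded Input in PL-NAc and fell short of it in PL-BLA. They include Nxph3, Hs3st4, which makes rare sulfation sites on heparan sulfate, and Mc4r, the melanocortin receptor. Hs3st4 went from 24.9 to 35.9 CPM in PL-NAc and from 30.0 to 15.4 in PL-BLA, a difference of 1.49 ± 0.20 (adjusted p = 1.59e-10). Mc4r was near the lower limit of counts, at 3.23 and 5.80 CPM in PL-NAc and 4.003 and 2.16 in PL-BLA, with a difference of 1.74 ± 0.42 (adjusted p = 0.00483). Cxcl12, a chemokine, differed by 1.24 ± 0.19 and Lsm14b, an mRNA-binding protein, by 1.32 ± 0.24. More abundant genes were among them too: Calm3, a calmodulin gene, went from 585 to 727 CPM in PL-NAc and from 669 to 485 in PL-BLA, a difference of 0.78 ± 0.11 (adjusted p = 1.57e-09). Efnb3, a membrane-bound ephrin, differed by 0.74 ± 0.15 and was the single one of 27 axon guidance ligands to be called. The remaining named genes of this direction were Rxrg, a retinoid receptor (0.88 ± 0.16), Mctp1, a calcium-binding membrane protein (0.85 ± 0.14), and Sst, the somatostatin precursor, described with the interneuron genes. Rxrg had close implied IP levels, 58.9 CPM in PL-NAc and 53.9 in PL-BLA, and Inputs of 42.4 and 71.3.

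The reverse pattern, below Input in PL-NAc and above it in PL-BLA, was found for 5 genes. Ltbp3, which holds latent TGF-beta in the matrix, differed most, at -1.52 ± 0.26, with implied levels of 14.5 and 7.35 CPM in PL-NAc and 17.5 and 25.5 in PL-BLA. Ntrk2 (chr13:58806569-59133970), the receptor for brain-derived neurotrophic factor, went from 228 to 194 CPM in PL-NAc and from 232 to 280 in PL-BLA, a difference of -0.50 ± 0.11 (adjusted p = 5.16e-04). Mroh1 (-0.66 ± 0.14), Rasa3, a Ras GTPase-activating protein (-0.55 ± 0.12), and Lrtm2 (-0.50 ± 0.13) were smaller. Lrtm2 lost its call with a length and GC trend subtracted (adjusted p = 0.070) and with z divided by its robust spread (0.12).

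**Figure D3:**
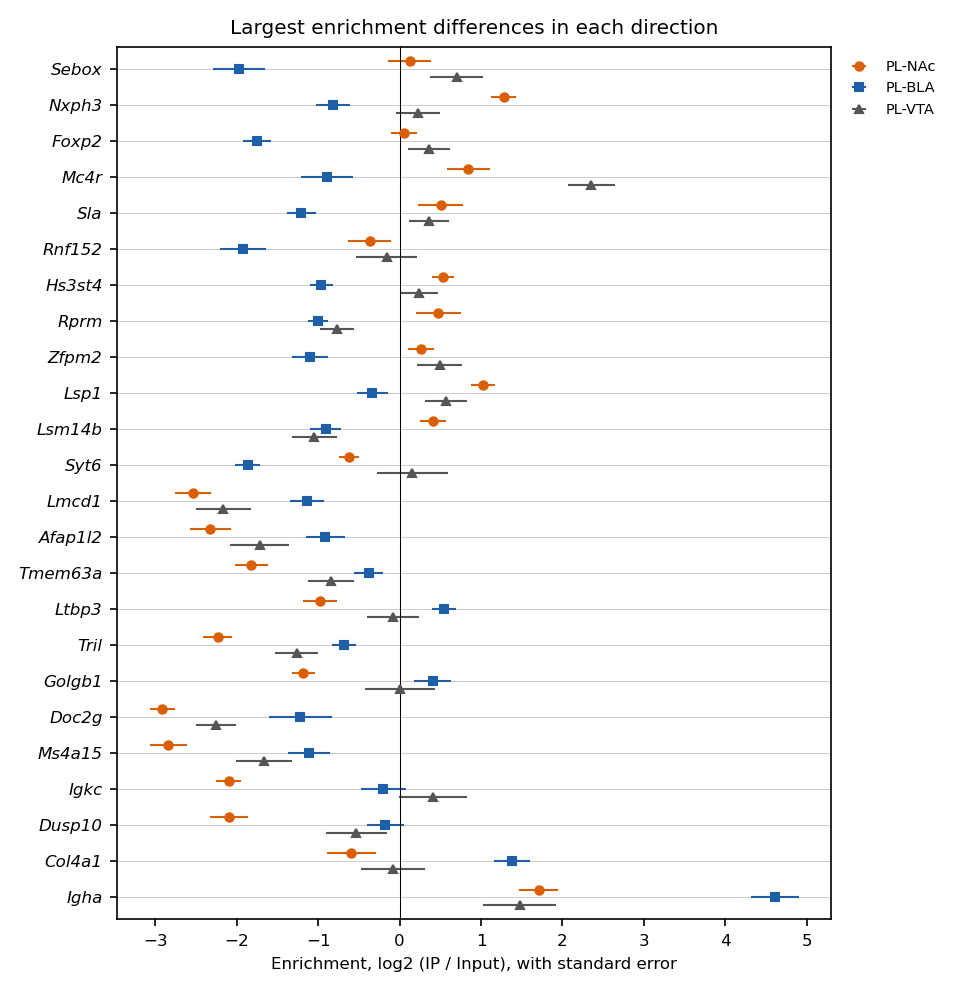
Log2 enrichment (IP over Input) with its standard error is shown for the 12 genes with the largest called differences in each direction, in PL-NAc (circles), PL-BLA (squares) and PL-VTA (triangles, 2 IP and 2 Input libraries). Nxph3 and Mc4r lie on opposite sides of 0 in PL-NAc and PL-BLA, and Igha lies above 0 in all 3 projections.

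Other genes with large differences toward PL-NAc were of mixed function. Sebox, a homeobox gene, had the largest difference in this direction, 2.10 ± 0.42 (adjusted p = 1.46e-04), at implied levels of 6.87 and 7.48 CPM in PL-NAc and 4.999 and 1.27 in PL-BLA. Lsp1, an actin-binding protein, differed by 1.36 ± 0.24 and Rnf152, a ubiquitin ligase of lysosomes, by 1.55 ± 0.39. Rnf152 was below Input in both projections and lost its call with z divided by its robust spread (adjusted p = 0.067). Gap43, the growth-associated protein of axons, was above Input in both, at 891 against 399 CPM in PL-NAc and 721 against 446 in PL-BLA, a difference of 0.47 ± 0.09, and was the single call among 21 genes of the axonal cytoskeleton.

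The 83 and the 159 genes also stood at different sides of Input. Over all members, 31.1% were above Input and 23.9% below it in PL-NAc, and 29.6% and 22.6% in PL-BLA, by the deposited adjusted p. Of the 83, 18 were above Input in both projections, 11 above in PL-NAc and below in PL-BLA, 16 above in PL-NAc alone, 22 below in PL-BLA alone and 16 below in both. Of the 159, 88 were below Input in both, 21 below in PL-NAc alone, 25 above in PL-BLA alone, 20 above in both and 5 below in PL-NAc and above in PL-BLA. So the largest single group of the PL-BLA direction consisted of mRNAs depleted from both IPs and less so in PL-BLA. In PL-VTA, 41 of the 83 were above Input and 10 below (13.8% and 11.8% of all members). Of the 159, 16 were above and 98 below.

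Among genes above Input in PL-BLA, Omg (chr11:79500982-79504084) had the smallest p of the comparison (adjusted p = 4.87e-18). It encodes the oligodendrocyte myelin glycoprotein, which neurons also make, and lies within Nf1 without exon overlap. Its implied level went from 131 to 153 CPM in PL-NAc and from 161 to 407 in PL-BLA, a difference of -1.12 ± 0.12. Lingo1, a co-receptor of the Nogo receptor complex, went from 253 to 434 CPM in PL-NAc and from 230 to 566 in PL-BLA, a difference of -0.52 ± 0.09 (adjusted p = 1.00e-05).

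Several synaptic genes moved by less. Snap25, a SNARE protein of transmitter release, was level with Input in PL-NAc, at 7101 against 7093 CPM, and above it in PL-BLA, at 9428 against 6917 (difference -0.45 ± 0.08). Nptx2, an activity-regulated pentraxin, was above Input in both projections and differed by -0.60 ± 0.14. Its implied IP levels were close, at 110 CPM in PL-NAc and 114 in PL-BLA, while its Inputs were 56.4 and 38.5. Adra1b, an alpha-1 adrenergic receptor, differed by -0.63 ± 0.17, Clstn1, a calsyntenin, by -0.36 ± 0.09 and Ptprs, a receptor tyrosine phosphatase, by -0.35 ± 0.10. Calls ended for Nptx2 with the difference of Wald statistics (adjusted p = 0.072), and for Adra1b with the length and GC trend subtracted (0.051) and the robust spread (0.12). Clstn1 and Ptprs lost theirs with the difference of Wald statistics (0.23 and 0.066), the length and GC trend (0.055 and 0.13) and the robust spread (0.062 and 0.23), and Ptprs also with centring (0.057).

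Interneuron genes were depleted from both IPs, 19 of 22 below Input in PL-NAc and 17 in PL-BLA. Of these 22, 5 were called higher in PL-BLA and 2 in PL-NAc, with a median difference of -0.38. The list's summed IP level was 44.4% of Input in PL-NAc and 53.0% in PL-BLA. Calb2, which encodes calretinin, was far below Input in both, at 11.7 against 147 CPM in PL-NAc and 17.1 against 94.0 in PL-BLA (difference -1.18 ± 0.17, adjusted p = 7.02e-09). Gad2, a GABA-synthesizing enzyme, differed by -0.55 ± 0.13. It lost its call when the PL-BLA values were rescaled by the across-gene slope (adjusted p = 0.083).

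The 2 interneuron genes of the other direction were neuropeptide precursors. Sst (chr16:23889573-23890958) went from 128 to 153 CPM in PL-NAc and from 152 to 105 in PL-BLA, a difference of 0.79 ± 0.13 (adjusted p = 5.83e-07). Npy was below Input in both projections and differed by 0.48 ± 0.13 (adjusted p = 0.0167), a call that ended with the difference of Wald statistics (0.51), with the length and GC trend subtracted (0.28) and with the robust spread (0.099). In the authors' deposited table for PL-VTA, Sst stood at -1.69 ± 0.19 and Npy at -3.07 ± 0.17.

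Most glial transcripts were depleted from the IPs of both projections, with a lower share left in PL-NAc. The direction of the fold changes was read from the negative sign of glial and mitochondrial genes, so their depletion is not an independent result. By the deposited adjusted p, 16 of 16 astrocyte genes were below Input in PL-NAc and 15 in PL-BLA, and 17 and 16 of 17 oligodendrocyte genes. Of the 159 genes called toward PL-BLA, 22 belonged to the 4 glial lists. None of the 83 did, which says little, since these lists held few members (16, 17, 8 and 16 genes). Astrocyte genes were called in 9 of 16, oligodendrocyte genes in 8 of 17, precursor genes in 3 of 8 and microglial genes in 2 of 16. All were higher in PL-BLA, a direction called for 1.33% of all members. The summed IP level of the astrocyte genes was 32.3% of Input in PL-NAc and 50.7% in PL-BLA. For the oligodendrocyte genes it was 18.9% and 28.7%, for precursors 20.04% and 36.8%, and for microglia 23.1% and 36.2%. Summed Input levels were close, at 3011 and 2988 CPM for astrocytes and 4023 and 4040 for oligodendrocytes.

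Aldh1l1, a folate enzyme of astrocytes, had 67.2 and 39.2 CPM in the PL-NAc Input and IP and 55.5 and 65.4 in PL-BLA, a difference of -1.01 ± 0.15 (adjusted p = 3.49e-08). Fgfr3, a growth factor receptor of astrocytes, had 64.2 and 6.45 CPM in PL-NAc and 65.8 and 15.0 in PL-BLA, a difference of -1.19 ± 0.20. Olig1, a transcription factor of the oligodendrocyte lineage, differed by -0.90 ± 0.14, Bcan, the proteoglycan brevican, by -0.85 ± 0.14 and Csf1r, the colony-stimulating factor receptor of microglia, by -0.90 ± 0.20. Olig1, Bcan and Csf1r were below Input in both projections.

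These glial counts depended on the spread of enrichments, which was wider in PL-NAc. With the PL-BLA fold changes multiplied by the slope of 1.13, astrocyte calls fell to 5, oligodendrocyte calls to 2 and microglial calls to 1, and the list medians stayed negative, at -0.44, -0.43 and -0.49. Olig2 and P2ry12 lost their calls in that alternative (adjusted p = 0.33 for each), while Aldh1l1, Fgfr3 and Olig1 did not. Olig2 and P2ry12 also lost them with the difference of Wald statistics (0.11 and 0.78) and with the robust spread (0.145 and 0.199). Of 9 genes of endothelial and mural cells and 4 of red blood cells and choroid plexus, none was called.

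Genes called toward PL-BLA that the glial lists do not hold included Htra1 and Tril, both below Input in both projections. The lists are short, so absence from them does not show that a gene is not glial. Htra1, a secreted serine protease, had 117 and 19.3 CPM in PL-NAc and 124 and 48.0 in PL-BLA, a difference of -1.23 ± 0.15 (adjusted p = 1.15e-12). Tril, a partner of toll-like receptors, differed by -1.55 ± 0.23. Dusp10, a phosphatase of stress-activated kinases, had 12.4 and 2.92 CPM in PL-NAc and 10.2 and 9.06 in PL-BLA, a difference of -1.92 ± 0.32. Golgb1, the Golgi protein giantin, stood at 41.9 and 18.5 CPM in PL-NAc and 45.0 and 59.5 in PL-BLA, a difference of -1.59 ± 0.27. Tmem63a (-1.44 ± 0.27), Lmcd1 (-1.40 ± 0.30), Afap1l2 (-1.41 ± 0.35) and Ms4a15 (-1.73 ± 0.34) were below Input in both projections. So was Doc2g, a Doc2 family protein, at -1.70 ± 0.42. Inputs were higher in PL-NAc than in PL-BLA for Ms4a15 (16.7 against 10.2 CPM) and Doc2g (50.2 against 25.9). Their IP levels were 2.33 against 4.72 and 6.67 against 11.1. The call of Doc2g ended when the shrinkage of the fold changes was removed (adjusted p = 0.61), with the slope (0.083) and with the robust spread (0.071). The call of Afap1l2 also ended with the robust spread (0.066).

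Immunoglobulin genes showed unequal Inputs. Igha, the constant region of the IgA heavy chain, had the largest difference toward PL-BLA, -2.90 ± 0.38 (adjusted p = 6.50e-11). Its implied level went from 3.01 to 9.83 CPM in PL-NAc and from 0.80 to 19.5 in PL-BLA, so that it was above Input in both. Igkc, the kappa light chain constant region, had 34.7 and 8.12 CPM in the PL-NAc Input and IP and 4.48 and 3.90 in PL-BLA, a difference of -1.90 ± 0.32. The PL-NAc Input thus held more of both transcripts. These genes are products of B lineage cells, reads of related constant regions may be shared between them, and the part of single libraries in these values was not tested.

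Col4a1 (chr8:11198423-11312826), a chain of basement membrane collagen, was called toward PL-BLA with a difference of -1.98 ± 0.37 (adjusted p = 4.36e-05). Its implied level was 4.63 and 3.07 CPM in PL-NAc and 4.86 and 12.7 in PL-BLA. The neighbouring Col4a2, which is read in the other direction and was chosen after its value was seen, differed by -1.26 ± 0.31. The call of Col4a2 ended with the robust spread (adjusted p = 0.066), and the annotated first exons of this pair overlap.

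Messenger RNAs of the mitochondrial genome, which are translated inside the organelle and not by tagged ribosomes, were among the most depleted transcripts. Their negative sign helped set the direction of the fold changes, so it is not an independent result. Their summed IP level was 1.17% of Input in PL-NAc and 2.82% in PL-BLA. Of 7 genes, 4 were called higher in PL-BLA and the median difference was -0.96. mt-Cytb had implied levels of 984 and 7.12 CPM in PL-NAc and 1378 and 35.9 in PL-BLA (difference -1.85 ± 0.36, adjusted p = 1.15e-04). None of the 7 was called with the shrinkage removed or with the slope applied, 2 were with the robust spread, and all 7 were with the difference of Wald statistics. Nuclear noncoding RNAs, the other transcripts that ribosomes do not carry, had a summed IP level of 2.63% of Input in PL-NAc and 2.67% in PL-BLA, and none of 6 was called.

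Short mRNAs of housekeeping complexes held few calls, and most of their differences were small and positive. Over all members 5785 of 11996 differences were positive. Of 68 cytosolic ribosomal protein genes, 63 had a positive difference, with a median of 0.27, but only Rpl41 was called (0.47 ± 0.13, adjusted p = 0.0272). Of 77 nuclear-encoded genes of oxidative phosphorylation, 66 had a positive difference, with a median of 0.23, and 2 were called, Ndufa7 (0.50 ± 0.11) and Ndufa3 (0.41 ± 0.11), both subunits of complex I. The median transcript length was 1054 bases in the ribosomal list, 1046 in the oxidative phosphorylation list and 3432 over all members. Across 11910 members with a GENCODE transcript, the difference had a Spearman correlation of -0.16 with transcript length, as a description over genes of the same libraries. With a length and GC trend subtracted the medians were 0.20 and 0.14, and the calls of Rpl41, Ndufa7 and Ndufa3 ended (adjusted p = 0.21, 0.066 and 0.15). With the slope those of Rpl41 (0.32) and Ndufa3 (0.081) ended too, and with the robust spread (0.14 and 0.11).

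**Figure D4:**
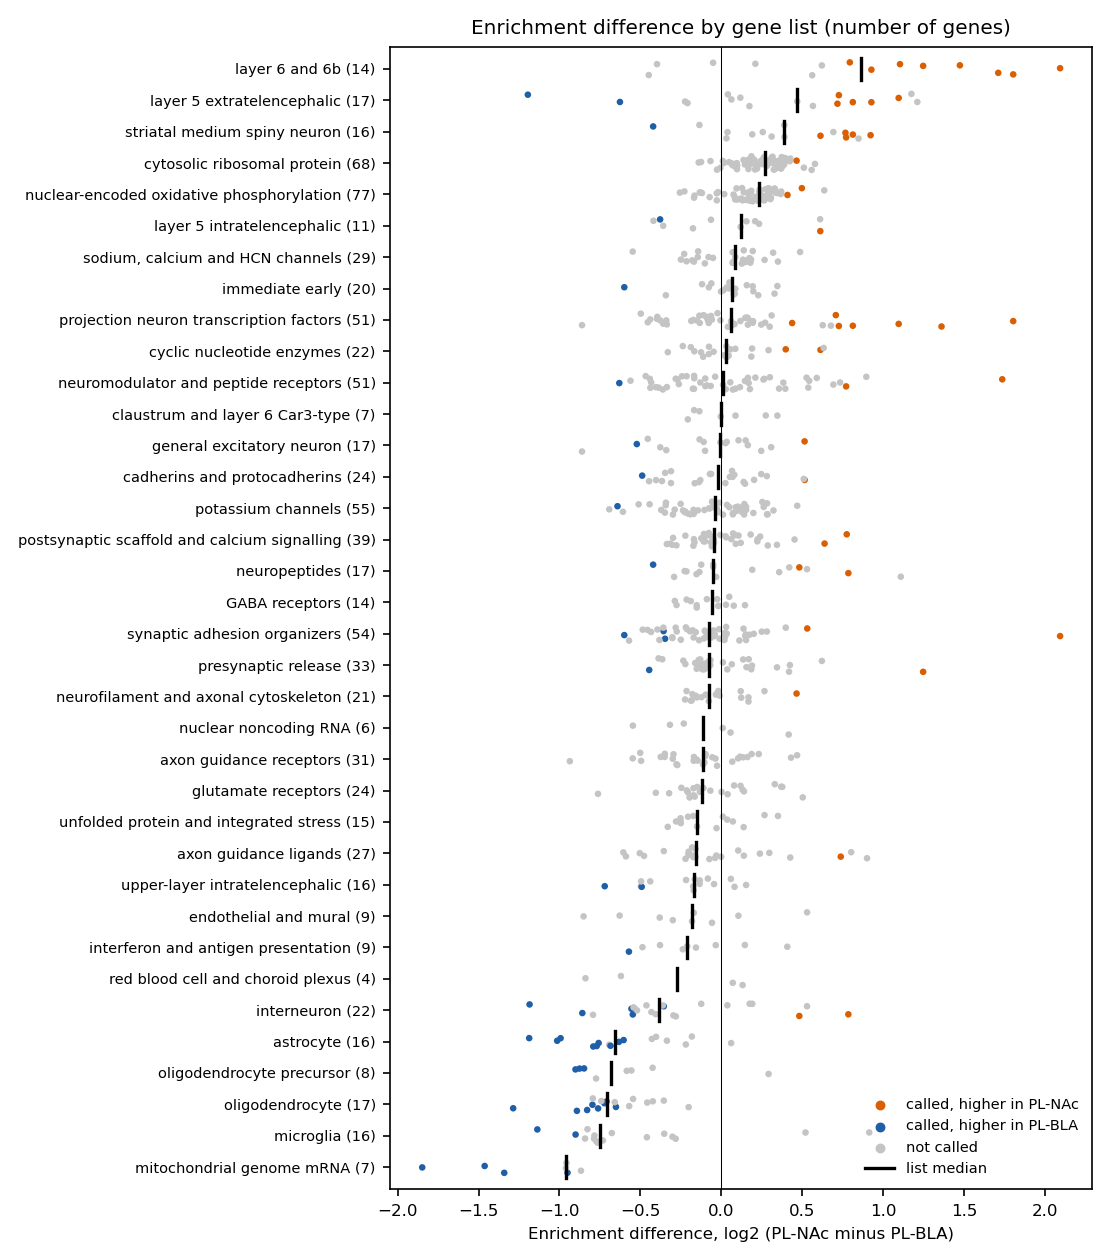
Each row is 1 gene list with its number of measured genes, each point is the enrichment difference of 1 gene on the log2 scale (PL-NAc minus PL-BLA), and the black bar is the list median. Layer 6 and 6b genes lie farthest to the right (median 0.86) and glial and mitochondrial genome lists farthest to the left, while receptor and channel lists centre near 0.

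Lists of channels, receptors and guidance genes held few calls. None of 24 glutamate receptor genes, 14 GABA receptor genes, 29 sodium, calcium and HCN channel genes or 31 axon guidance receptor genes was called, and their medians lay between -0.12 and 0.09. Of 55 potassium channel genes 1 was called, Kcnc2, a fast-spiking channel of the Kv3 family (-0.64 ± 0.16, adjusted p = 0.0106). It was below Input in both projections, at -1.41 in PL-NAc and -0.77 in PL-BLA on the log2 scale. Its call ended with the slope (0.12) and with the robust spread (0.089). Of 51 receptors for neuromodulators and peptides 3 were called, Mc4r and Drd1 toward PL-NAc and Adra1b toward PL-BLA. Among 24 cadherins, Cdh13 was higher in PL-NAc (0.52 ± 0.12) and Pcdh7 higher in PL-BLA (-0.49 ± 0.13). Cdh13 lost its call with the slope (adjusted p = 0.10), and Pcdh7 with the length and GC trend (0.051) and the robust spread (0.16). Among 54 organizers of synaptic adhesion, Nxph3 and Igsf21 (0.53 ± 0.13) were higher in PL-NAc and 3 in PL-BLA, those named above as Nptx2, Clstn1 and Ptprs. The call of Igsf21 ended with the slope (adjusted p = 0.056).

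Postsynaptic and cyclic nucleotide genes showed a few calls toward PL-NAc. Of 39 postsynaptic genes, Calm3 and Dlg4, the scaffold PSD-95 (0.64 ± 0.18, adjusted p = 0.0326), were called. Dlg4 lost its call with the robust spread (0.15). Adcy1, the calmodulin-stimulated adenylyl cyclase, differed by 0.40 ± 0.11 and was with Adcy5 the called pair among 22 cyclic nucleotide enzymes. Adcy1 was below Input in both projections, at -0.41 in PL-NAc and -0.81 in PL-BLA on the log2 scale. The call of Adcy1 ended with the difference of Wald statistics (adjusted p = 0.13) and the robust spread (0.13). Arpp21, a regulated phosphoprotein, differed by 0.52 ± 0.09 (adjusted p = 3.68e-06) and was below Input in both projections, at -0.15 in PL-NAc and -0.66 in PL-BLA. Of 20 immediate early genes 1 was called, Nptx2, and the summed Input level of the list was 2442 CPM in PL-NAc and 1645 in PL-BLA. Among 9 interferon and antigen presentation genes H2-D1 was called (-0.57 ± 0.16). Its implied IP levels were close, at 38.1 CPM in PL-NAc and 37.3 in PL-BLA, while its Inputs were 71.9 and 47.4. The call of H2-D1 ended with the slope (adjusted p = 0.12), the length and GC trend (0.0501) and the robust spread (0.17). Among 15 genes of the unfolded protein response and 7 of claustrum-like neurons none was called.

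Rpl10a, the gene of the ribosomal protein used as the tag in translating ribosome affinity purification, was close to Input in both projections and differed by 0.10 ± 0.39, which the error leaves undetermined. Just inside the minimum count, Sh3pxd2a (means of 50.02 and 71.7) differed by 0.05 and Bhlha9 (50.1 and 53.6) by -0.13. Just outside it, Tmem132c (49.99 and 66.4) differed by -0.46 and Gm16485 (49.94 and 59.9) by 0.30.

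Coordinates are those of GENCODE M21 on GRCm38. The library chemistry does not mark the strand, and 73 of the 242 called genes share exon sequence with another annotated gene, 62 of them on the opposite strand. Among the genes named here these include Hs3st4, Syt6, Pou3f1, Ltbp3, Mroh1, Tril, Golgb1, Aldh1l1, Fgfr3, Olig1, P2ry12, Penk, Ndufa3 and Csf1r, whose values may hold reads of the partner. The mean counts of a table summed to 15437849 in PL-NAc and 16347808 in PL-BLA.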

How the data were processed

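The values come from the authors' comparison tables, 1 per projection, for 12 of the 16 samples (PL-NAc and PL-BLA, IP and Input), with PL-VTA for reference. Per the submitters' processing notes, STAR 2.3 aligned the reads, featureCounts counted them, and DESeq2 made the comparisons, with mm10 and GRCm38 as the builds named. Annotation, filters and model: not given in the sources used here. Per the file headers, each gene has the authors' mean signal, a mean of normalized counts. Beside it the authors deposited a log2 fold change with its error. Their direction, IP over Input, was read from the values, since glial and mitochondrial genes were negative. These log2 values appear shrunken toward 0: the deposited errors reach a ceiling of 0.438 in PL-NAc and 0.419 in PL-BLA, which understates changes of low genes. The score is the authors' Wald statistic, which equals the fold change over its error. The p-value and adjusted p-value are deposited by the authors.

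The enrichment difference was tested with a two-sided Wald z of the authors' 2 deposited DESeq2 fold changes over their combined error, in Python 3.11.15 with scipy 1.17.1. The tables share no library, so the errors were treated as independent. The Benjamini-Hochberg adjustment ran over 21981 genes, and calls are at 0.05. Implied Input and IP levels solve the mean count and the fold change for group means, assuming equal weight of IP and Input. Coordinates, lengths and GC come from GENCODE M21, which held 11910 of the 11996 members.

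The members and the 36 gene lists were chosen with earlier results of these data known. Genes named are the 12 largest differences and 5 smallest p in each direction, up to 8 with opposite signs, up to 3 called per list and direction, the tag gene and the threshold neighbours. Blank, Gm-numbered, Rik and mitochondrial names were left out of the first 3 groups. A few genes that the rule selects are not reported here. Other names are said to be chosen after their values were seen. No set test was run. The depth of single libraries was not used here. Alternatives covered the minimum count, the adjustment, centring, slope, Wald statistics, robust spread, a null difference of 0.5, and, chosen after seeing the data, removal of the shrinkage and a length and GC trend.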

Additional observations from a re-analysis of the deposited data

Results flagged for a closer look

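These genes were singled out because IP stood above Input in one projection and below it in the other, each at a deposited adjusted p under 0.05, and the difference itself was called. Above Input in PL-NAc and below it in PL-BLA were Nxph3 (difference 2.09), Mc4r (1.74), Hs3st4 (1.49), Lsm14b (1.32), Cxcl12 (1.24), Rxrg (0.88), Mctp1 (0.85), Sst (0.79), Calm3 (0.78) and Efnb3 (0.74). Below Input in PL-NAc and above it in PL-BLA were Lrtm2 (-0.50), Ntrk2 (-0.50), Rasa3 (-0.55), Mroh1 (-0.66) and Ltbp3 (-1.52). In the authors' deposited table for PL-VTA, Cxcl12 stood at 1.99 ± 0.19 and Mc4r at 2.36 ± 0.29, well above Input, while Sst stood at -1.69 ± 0.19 and Lsm14b at -1.05 ± 0.28, below it.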

How the results depend on the processing

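The counts of 83 and 159 calls moved by more than 1.5 times in 3 alternatives. With the difference of the Wald statistics, 144 genes were called higher in PL-NAc. With z divided by its robust spread of 1.15, the counts were 51 and 79. Tested against an absolute difference of 0.5, 3 genes remained toward PL-NAc (Nxph3, Foxp2 and Hs3st4), 6 toward PL-BLA (Igha, Omg, Htra1, Tril, Igkc and Dusp10) and 2 with opposite signs, and the layer 6 and 6b count was 2. The cause was not tested, except that the last test asks for a larger difference. Minimum counts of 20, 200 and none gave 85 and 161, 74 and 138, and 86 and 165 calls. Adjustment over the members alone gave 101 and 187, and centring 84 and 151. The slope gave 83 and 126, with 158 of the 242 calls shared. Removal of the shrinkage gave 81 and 149, with 228 shared, and the length and GC trend 99 and 139, with 208 shared. No named gene changed direction in any of these alternatives. No paired analysis was possible because the tables hold no per-library values, and leaving out replicates was not run for the same reason. With 3 libraries per group the standard error of a difference was 0.18 at the median, and a call needed several such errors.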

Other observations

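Apart from the lists, a set of 12 genes was put together after the values of Omg were seen, and 10 were measured. It held the Nogo receptor system, which limits axon growth, and paralogs of Lingo1. Of the 10, 5 were called higher in PL-BLA, against 1.33% of all members, and none higher in PL-NAc. Omg, which prompted the set, is 1 of the 5. Lingo1 and Mag were already called members of other lists, so the count of 5 is not independent evidence. Among ligands, Omg differed by -1.12 ± 0.12 and Mag, the myelin-associated glycoprotein, by -0.76 ± 0.15, while Rtn4, which encodes Nogo, differed by 0.09 ± 0.11 and was not called. Among co-receptors, Lingo1 differed by -0.52 ± 0.09, and Tnfrsf19 by -0.46 ± 0.18 without a call (adjusted p = 0.346). Of the paralogs of Lingo1, Lingo3 differed by -1.04 ± 0.16 and Lingo2 by -0.93 ± 0.17. Lingo3 had implied levels of 45.6 and 41.9 CPM in the PL-NAc Input and IP and 62.7 and 118 in PL-BLA. The receptors themselves were not called, at -0.17 ± 0.12 for Rtn4r, -0.25 ± 0.12 for Rtn4rl1 and -0.17 ± 0.13 for Rtn4rl2. Mag is made by oligodendrocytes and was below Input in both projections.

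Further genes were also picked after their values were seen. Atg7 and Yeats2 were above Input in both projections and more so in PL-BLA. Atg7, an enzyme of autophagy, had 40.5 and 152 CPM in PL-NAc and 41.3 and 281 in PL-BLA, a difference of -0.86 ± 0.13, a call that ended with the difference of Wald statistics (adjusted p = 0.22). Yeats2 differed by -1.04 ± 0.21. Both paralogs of the Pur family of nucleic acid binding proteins were called toward PL-NAc, Pura at 0.48 ± 0.11 and Purb at 0.50 ± 0.11. Neither was above Input: log2 enrichments in PL-NAc and PL-BLA were -0.10 and -0.58 for Pura and -0.80 and -1.30 for Purb. Ramp3, a subunit of calcitonin family receptors, differed by 0.86 ± 0.20 and Glra2, a glycine receptor subunit, by 1.149 ± 0.275. Ramp3 stood at 1.45 in PL-NAc and 0.59 in PL-BLA, and Glra2 at 1.07 and -0.08.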
